A study of Mus musculus with 6 samples.

Results

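Endothelial cells, which line blood vessels, were followed through 10 genes in tissue dissected around the node and primitive streak of mouse embryos: Kdr, Tek and Tie1 (receptors), Etv2, Sox18 and Lmo2 (nuclear regulators), Cdh5, Pecam1 and Esam (junction and adhesion proteins) and Egfl7 (a secreted protein). The genes were chosen by name, and each probe set annotated with only that symbol was taken. This gave 14 probe sets of the 45037 tested, for 10 of 18193 measured genes. Each sample was a pool of amplified RNA from 3 embryos of mixed C57BL/6 and 129/Sv background, staged at embryonic day 7.75 to 8 with 0 to 2 somites. There were 3 pools of Wnt3a null embryos and 3 pools of embryos wild type for Wnt3a, with 1 array per pool and biological replicate numbers 1 to 3 in each genotype. The labels do not describe the null allele. Wnt3a encodes a secreted Wnt ligand of the streak, and the question was what its loss does to gene expression there.

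The first endothelial cells of the mouse arise from mesoderm that has left the primitive streak. Kdr, a receptor for vascular endothelial growth factor (VEGF), marks these progenitors together with the ETS factor Etv2, which is required for blood and endothelial cells to form. Tek, Tie1, Cdh5, Pecam1 and Esam belong to the later programme of cells that assemble and line vessels. The tissue measured here was mixed, so that fewer endothelial cells and less RNA per cell cannot be told apart.

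Values are linear array signals with no unit. Differences are null minus wild type on the log2 scale, tested with limma across all 45037 probe sets with Benjamini-Hochberg adjustment and a threshold of 0.05. The p-values measure the spread between pools, in a fit without a block for replicate number. Arrays of the same number appeared to be paired, so this spread includes what such arrays share. Median signals were 77.7 to 86.1 in null pools and 73.6 to 81.0 in wild-type pools. The Wnt3a probe set read 761 to 1009 in null pools and 865 to 1058 in wild-type pools, so it does not check the genotype labels. Wild-type pool 1 had an Eif2s3y signal (Y-linked) of 4.31, against 1053 to 1788 in the other pools. The ratio of the 3′ to the 5′ Gapdh probe set, which grows as RNA shortens, was 2.09 to 2.39 in null pools and 2.51 to 3.00 in wild-type pools. The same ratio for actin overlapped, at 2.38 to 3.83 in null pools and 2.68 to 3.69 in wild-type pools. Their part in the differences was not tested.

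Null pool 1 stood apart from the other 5 pools in vessel genes. On the log2(signal + 50) scale, 181 of 18193 genes (0.995%) were more than 2-fold above every other pool in it, against 3 to 15 genes in each other pool. Among these were endothelial genes outside the 10, named after their values were seen. Cldn5, a tight junction gene of endothelium, read 1805, 169 and 174 in null pools, against 295, 114 and 273 in wild-type pools. Cd34, a surface protein of vessel and blood progenitor cells, read 552, 65.7 and 42.2 in null pools, against 68.3, 26.7 and 73.2 in wild-type pools. Angpt2, a ligand of the Tek receptor, read 1825, 149 and 138 in null pools, against 246, 81.1 and 134 in wild-type pools. In all 3 genes null pool 1 was the highest, and null pools 2 and 3 lay inside the wild-type range.

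The same pool was high in markers of the uterine decidua, the maternal tissue around the embryo. This list of 12 genes was put together after the values had been seen and is described without a test. Null pool 1 was the highest of the 6 pools for 10 of the 12, against 18.9% of all genes. In it 8 of the 12 were more than 2-fold above every other pool, against 0.995% of all genes. Both counts depend on how the list was chosen. The summed signal of the list was 19137, 6913 and 6471 in null pools 1 to 3, against 2947 to 5550 in wild-type pools. Tdo2, a tryptophan-degrading enzyme of decidual cells, read 5536 in null pool 1 and 207 to 436 in the other 5 pools. Dcn, a matrix proteoglycan, read 2484 in that pool and 46.6 to 143 in the others. Prl8a2, a decidual prolactin-family gene, went otherwise. It read 2429, 4049 and 3971 in null pools, against 1453, 3110 and 905 in wild-type pools. For 3 of the 12 (Hoxa10, Bmp2 and Cryab) every null pool was above every wild-type pool, against 5.57% of all probe sets. Without null pool 1, 8 of the 12 were higher in value and 4 lower, with a median log2 difference of 0.17. The Xist signal was 5047, 1871 and 2707 in null pools, against 7440, 2054 and 2408 in wild-type pools. Wild-type pool 1, the highest for Xist, had an Eif2s3y signal of 4.31 and a summed decidua signal of 3600. How Xist relates to the decidua markers was not tested. What part the decidua markers play in the endothelial signals was not tested either.

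**Figure D1:**
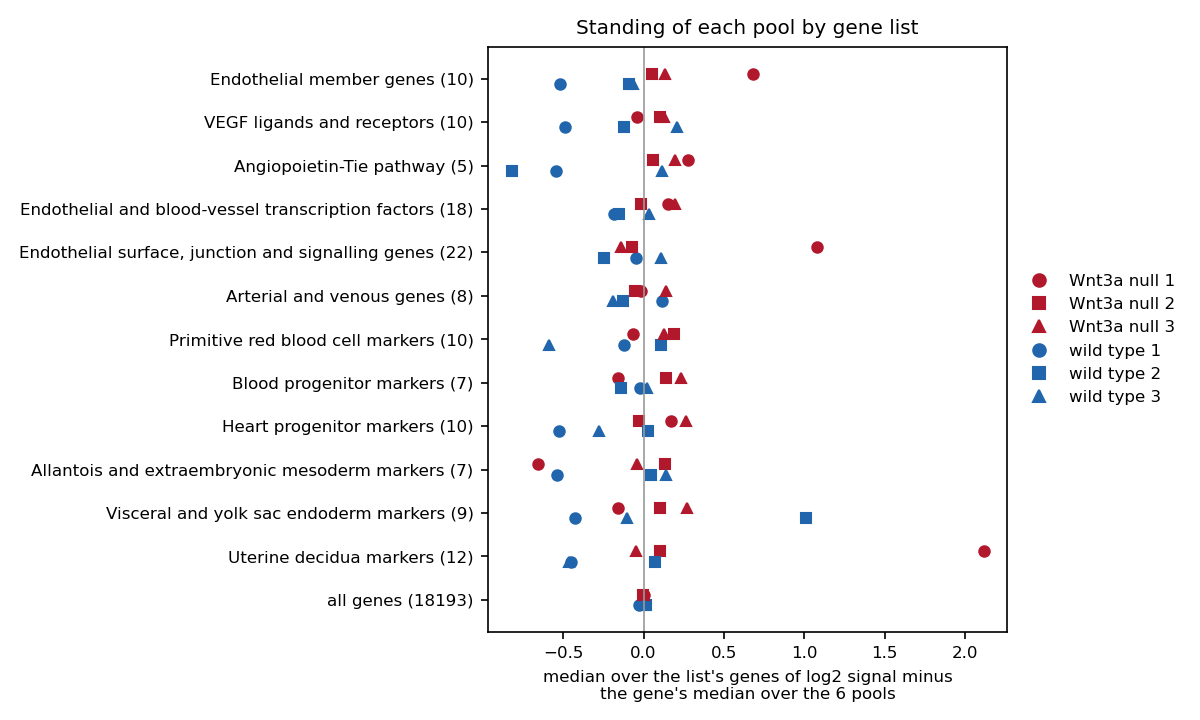
For each gene list (number of genes in brackets) the horizontal axis gives the median over its genes of log2 signal minus that gene's median over the 6 pools; red points are Wnt3a null pools and blue points wild-type pools, with the marker shape giving the replicate number. Null pool 1 lies at 1.08 for surface and junction genes and at 2.12 for decidua markers, while wild-type pool 2 lies at 1.01 for visceral endoderm markers. The decidua list was put together after the values had been seen.

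None of the 14 probe sets passed the test, in which 0.0% of all probe sets were called lower and 0.0% higher. The smallest adjusted p among the members was 0.930 (limma, Lmo2). At an unadjusted p under 0.05 stood 1 of 14, against 5.05% of all probe sets, and it was lower in null pools. Mean log2 signals were higher in null pools for 12 of 14 probe sets and lower for 2, with a median difference of 0.41, against 51.7% higher and a median of 0.014 over all probe sets. For 3 of 14 probe sets (Kdr, Lmo2 and 1 of Egfl7) the genotypes did not overlap, against 9.98% of all probe sets. In 2 of the 3 null pools lay above, against 5.57% of all probe sets, and in 1 below, against 4.41%. The number of arrays limits the precision. In simulated data of this size the fit recovered 0% of probe sets changed by 1 on the log2 scale, 34.2% of those changed by 2 and 83.6% of those changed by 4.

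**Figure D2:**
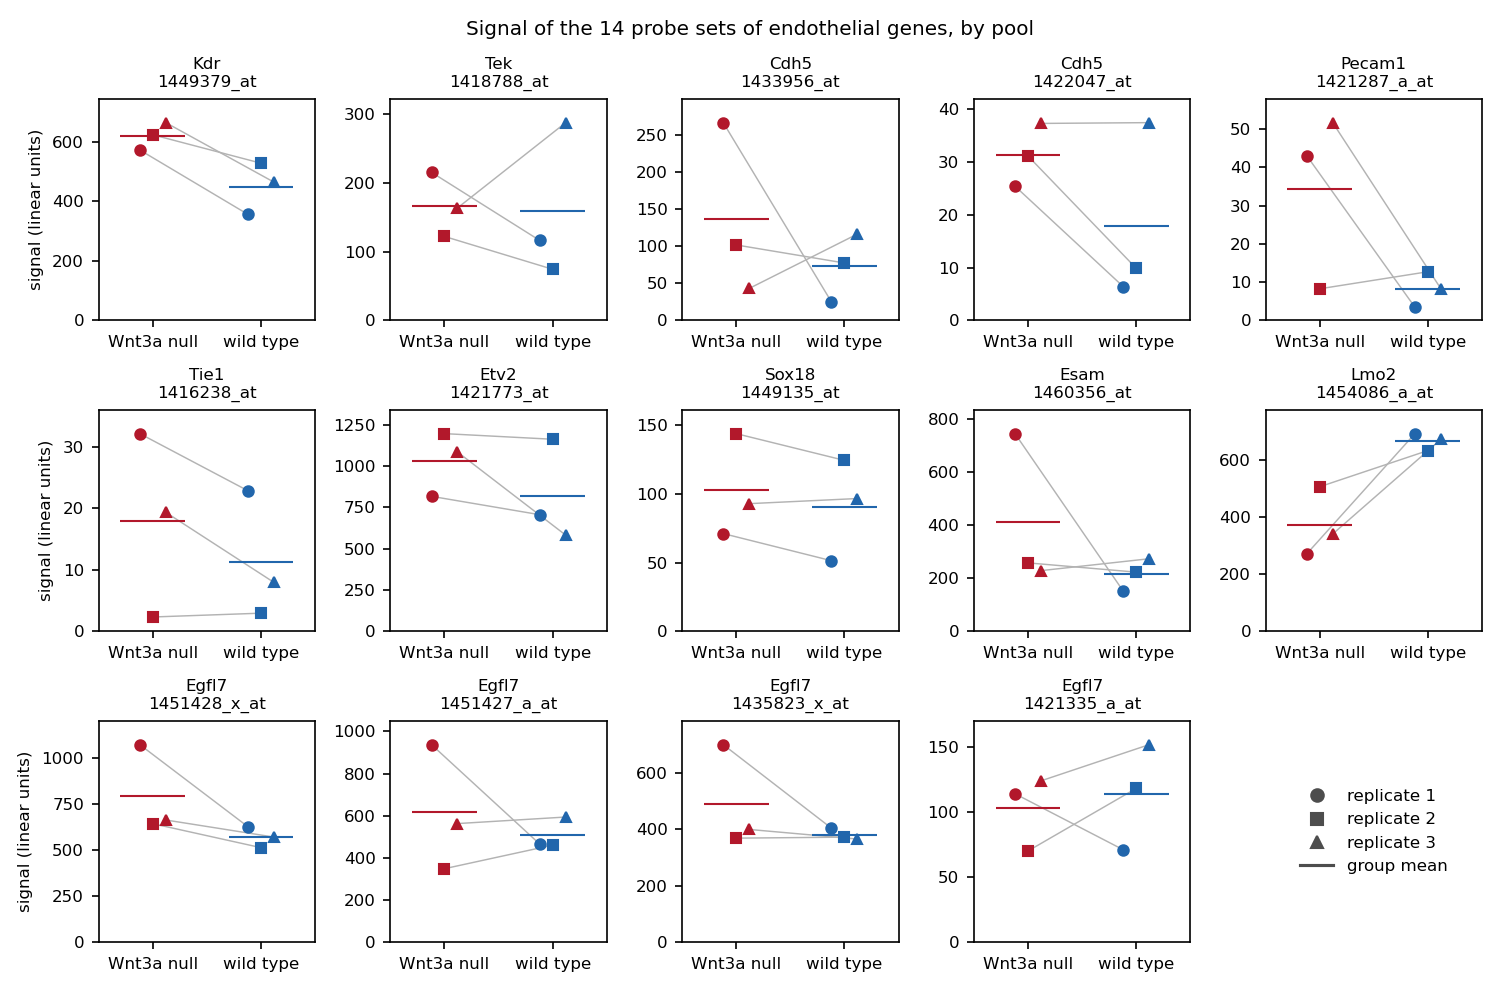
Each panel shows the linear signal of 1 probe set in 3 Wnt3a null pools (red, left) and 3 wild-type pools (blue, right); symbols give the replicate number, grey lines join pools of 1 number and horizontal bars are group means. The genotypes do not overlap for Kdr and the brightest Egfl7 probe set (null pools above) and for Lmo2 (null pools below). For Esam and the brighter Cdh5 probe set null pool 1 alone lies above all other pools.

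Among the receptors, Kdr separated the genotypes. Its probe set 1449379_at read 572, 623 and 663 in null pools 1 to 3, against 355, 527 and 464 in wild-type pools. Every null pool was above every wild-type pool, as in 5.57% of all probe sets, and pool 1 was the lowest of each genotype. The log2 difference was 0.48 with a standard error of 0.23 and a 95% interval from -0.10 to 1.06 (limma, adjusted p = 1.00), a geometric mean 1.40-fold higher. Kdr was not highest in null pool 1, and without that pool the log2 difference was 0.54 (95% interval -0.20 to 1.27). It was 0.32 without wild-type pool 1, which was the lowest of the 6 pools for 6 of the 14 member probe sets.

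The promoter of Kdr is shown because Kdr was the receptor whose signals separated the genotypes, beside the first of 3 Egfl7 promoters, the 1 window of the 7 searched that holds a TCF/LEF letter match. Both are 300 bases from RefSeq (build GRCm38.p6), 5′ to 3′ on the gene's strand, from 250 bases before to 50 after the start, with motif matches in capitals. The Kdr window lies at chr5:75978406-75978705 on the minus strand and the Egfl7 window at chr2:26580833-26581132 on the plus strand.
Kdr: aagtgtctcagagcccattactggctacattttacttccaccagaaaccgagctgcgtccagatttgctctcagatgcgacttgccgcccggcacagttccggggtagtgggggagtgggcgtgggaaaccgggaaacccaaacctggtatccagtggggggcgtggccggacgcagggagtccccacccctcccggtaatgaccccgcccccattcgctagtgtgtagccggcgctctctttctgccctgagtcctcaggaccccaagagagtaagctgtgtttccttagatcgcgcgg
Egfl7: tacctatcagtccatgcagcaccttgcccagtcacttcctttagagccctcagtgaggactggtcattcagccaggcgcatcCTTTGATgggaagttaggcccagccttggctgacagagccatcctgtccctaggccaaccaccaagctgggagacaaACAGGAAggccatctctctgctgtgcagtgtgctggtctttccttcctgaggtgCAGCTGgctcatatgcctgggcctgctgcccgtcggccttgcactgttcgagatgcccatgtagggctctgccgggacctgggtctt

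Promoters of 5 of the 10 members (7 windows) were in the RefSeq table: Kdr, Tek, Tie1, Etv2 and Egfl7. Each was searched on both strands. The letters for TCF/LEF, the nuclear partners of Wnt signalling, were CTTTGAT. Those for ETS factors were ACAGGAA, with CCGGAAG as a second form found in none of the 7 windows. GATA factors were searched as AGATAA, SOX factors as ACAATG and E-box factors as CAGCTG. No match overlapped another in the windows printed. The Egfl7 window holds CTTTGAT from position -168 relative to the start site, ACAGGAA from -91 and CAGCTG from -37. CTTTGAT occurs in 3.73% of the 32851 promoter windows of the table, ACAGGAA in 8.67% and CAGCTG in 16.3%. The share was 8.86% for the other ETS string, 11.2% for GATA and 12.6% for SOX. AGATAA stands at position 37 of Tek, and ACAGGAA, on the other strand, at -209 of Tie1. The second Egfl7 window holds ACAGGAA at -82, so that 3 of the 7 windows have this string. The Kdr and Etv2 windows hold none of the 6 letter strings. A match in 7 windows is a description of the letters and no sign of binding.

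Tek, the receptor of the angiopoietins, overlapped between genotypes. Probe set 1418788_at read 215, 122 and 163 in null pools, against 116, 74.3 and 287 in wild-type pools. Wild-type pool 3 was the highest of the 6, and the pair of replicate 3 ran against the other pairs. The log2 difference was 0.26 (95% interval -1.11 to 1.64; limma, adjusted p = 1.00). Without wild-type replicate 2 it was -0.17 and without wild-type replicate 3 it was 0.81.

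Tie1, a receptor that acts together with Tek, lay near the floor of the arrays. Probe set 1416238_at read 32.2, 2.35 and 19.4 in null pools, against 22.9, 2.97 and 7.97 in wild-type pools, and 10.9% of all probe sets were dimmer. Pool 2 was lowest in each genotype. The log2 difference of 0.48 had an interval from -2.57 to 3.52 (limma, adjusted p = 1.00), so this fit does not bound even large differences. With a block for replicate number the interval was -0.729 to 1.685. With trend and robust variance options as well it was -1.66 to 2.62.

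Of the nuclear regulators, Lmo2 was the member with a lower signal in every null pool. Lmo2 is a LIM-only protein that bridges Tal1 and GATA factors in blood and endothelial progenitors. Probe set 1454086_a_at read 271, 507 and 341 in null pools, against 693, 633 and 672 in wild-type pools. The wild-type pools were close to each other, and null pool 2 was the nearest to them. The log2 difference was -0.88 with a standard error of 0.29 and an interval from -1.60 to -0.17 (limma, unadjusted p = 0.0235, adjusted p = 0.930), a geometric mean 1.85-fold lower. Pair by pair it was -1.35, -0.32 and -0.98. Adding a replicate block with trend and robust variance options, limma called 0.0311% of all probe sets lower in null pools, and the adjusted p for Lmo2 was 0.233. Without pair 2, a setting added after seeing the data, that fit gave Lmo2 a log2 difference of -1.17 and an adjusted p of 0.0179 (limma), with 0.151% of all probe sets called lower. Pair 2 was the pair with the smallest Lmo2 difference, so this setting cannot count as support. Lmo2 was not called when either other pair was left out. The call without pair 2 was the only call of a member under any setting run. Without null pool 1, the lowest for Lmo2, the log2 difference in the planned fit was -0.68.

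Etv2 went with Kdr in sign, with more overlap. Probe set 1421773_at read 817, 1196 and 1085 in null pools, against 706, 1162 and 582 in wild-type pools. Each null pool was above the wild-type pool of its number, by log2 differences of 0.21, 0.04 and 0.90. All 3 pairs were higher for 3 of the 14 member probe sets (Kdr, Etv2 and 1 of Egfl7), against 15.0% of all probe sets. Lmo2 alone was lower in all 3 pairs, against 13.7% of all probe sets. The fitted difference of Etv2 was 0.38 (95% interval -0.46 to 1.22; limma, adjusted p = 1.00). It was 0.17 without wild-type pool 3 and 0.67 without wild-type pool 2.

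Sox18, an HMG-box factor of early vessels, overlapped between genotypes. Probe set 1449135_at read 71.0, 144 and 92.7 in null pools, against 51.3, 124 and 96.4 in wild-type pools. Replicate 2 was highest and replicate 1 lowest in each genotype. The log2 difference was 0.21 (95% interval -0.90 to 1.31; limma, adjusted p = 1.00), and its sign turned without null replicate 2 (-0.067) or wild-type replicate 1 (-0.16).

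Of the junction genes, Esam and the brighter Cdh5 probe set had 1 null pool far above the others. Esam, an adhesion molecule of endothelial tight junctions, read 745, 258 and 229 in null pools, against 152, 223 and 274 in wild-type pools (probe set 1460356_at). Null pool 1 was 2.72 times the next highest pool, and null pools 2 and 3 lay inside the wild-type range. The log2 difference of 0.75 (95% interval -0.58 to 2.07; limma, adjusted p = 1.00) became 0.21 without null pool 1.

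Cdh5, VE-cadherin of endothelial adherens junctions, was measured by a pair of probe sets. The brighter, 1433956_at, read 266, 102 and 43.0 in null pools, against 24.9, 77.2 and 116 in wild-type pools. Null pool 1 was again the highest, and the pairs differed by 3.42, 0.39 and -1.43 on the log2 scale. Its difference of 0.79 (95% interval -1.37 to 2.96; limma, adjusted p = 1.00) became 0.12 without null pool 1 and 0.15 without wild-type pool 1. The dimmer Cdh5 probe set, 1422047_at, read 25.4, 31.1 and 37.3 in null pools, against 6.41, 9.87 and 37.4 in wild-type pools. Here null pool 1 was the lowest of the null pools, so the excess of that pool was not shared by this dim probe set. Its log2 difference was 1.21 (95% interval -0.49 to 2.91; limma, adjusted p = 1.00), with 0.68 without wild-type pool 1 and 0.28 on the log2(signal + 50) scale.

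Pecam1, an adhesion molecule of endothelial cell contacts, was also dim. Probe set 1421287_a_at read 43.1, 8.27 and 51.7 in null pools, against 3.45, 12.7 and 8.29 in wild-type pools. Null pools 1 and 3 were above all wild-type pools, and null pool 2 was among them. The log2 difference of 1.89 was the largest of the 14, with an interval from -0.27 to 4.05 (limma, adjusted p = 1.00). On the log2(signal + 50) scale, which damps dim signals, it was 0.50.

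Egfl7, a protein secreted by endothelial cells, was measured by 4 probe sets that did not move alike. The brightest, 1451428_x_at, read 1073, 644 and 664 in null pools, against 628, 514 and 571 in wild-type pools. All null pools were above all wild-type pools, with null pool 1 the highest, and the log2 difference was 0.44 (95% interval -0.25 to 1.13; limma, adjusted p = 1.00). Probe set 1451427_a_at read 937, 349 and 563 in null pools, against 466, 461 and 594 in wild-type pools, and the difference was 0.18.

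In probe set 1435823_x_at Egfl7 read 700, 369 and 400 in null pools, against 404, 373 and 366 in wild-type pools, with a log2 difference of 0.30. The dimmest, 1421335_a_at, read 114, 70.2 and 124 in null pools, against 71.1, 118 and 152 in wild-type pools, with a log2 difference of -0.12. Null pool 1 was the highest of all pools in the 3 brighter Egfl7 probe sets. Without it their log2 differences were 0.20, -0.18 and 0.014. The suffix _x_at marks probe sets with probes that can bind other sequences too.

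**Figure D3:**
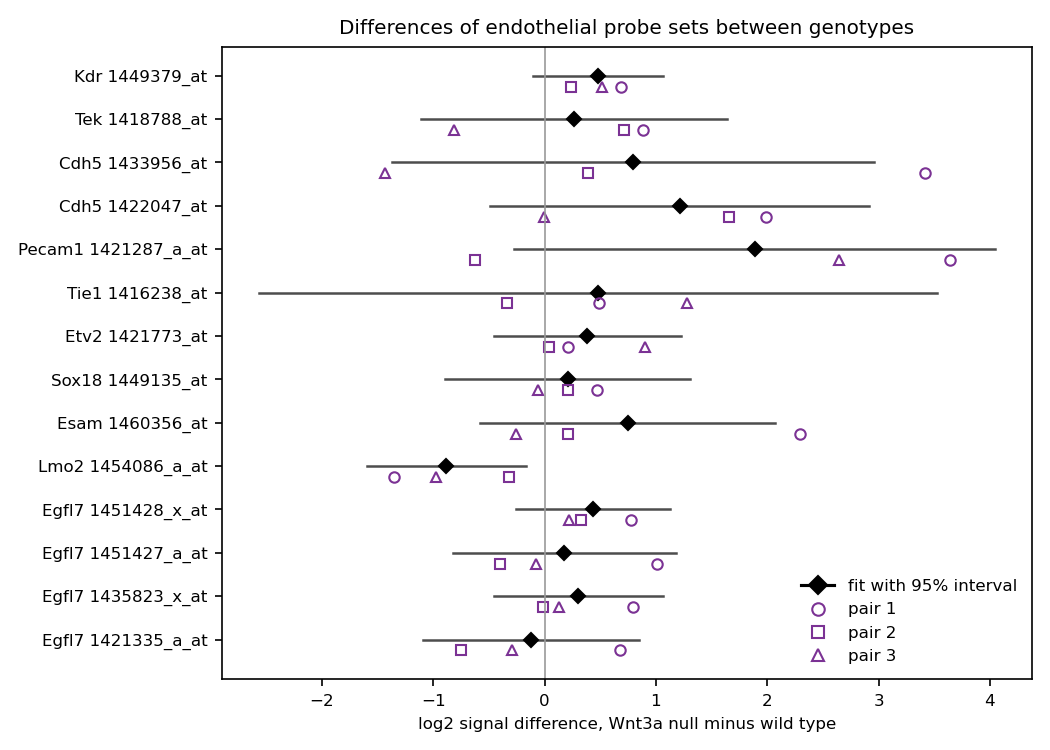
Black diamonds and lines give the log2 signal difference (Wnt3a null minus wild type) and 95% interval of each of the 14 probe sets; open purple symbols give the differences of the 3 pairs of pools with the same replicate number. Of the 14 intervals, which are from the planned fit without a block, only that of Lmo2, from -1.60 to -0.17, leaves out 0.

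Taken per gene by its brightest probe set, 9 of the 10 members were higher in value and Lmo2 was lower, with a median log2 difference of 0.46, against 0.0050 over 18193 genes, of which 50.8% were higher. Without null pool 1 the counts were 8 higher and 2 lower (Lmo2 and Tie1), with a median of 0.20 (0.32 to 0.54 with each other pool left out). For members not yet given in this way, the log2 differences without null pool 1 were 0.060 for Tek, -0.27 for Tie1, 0.54 for Etv2, 0.44 for Sox18, 1.35 for the dimmer Cdh5 probe set, 1.53 for Pecam1 and -0.22 for the dimmest Egfl7 probe set. The summed signal of these 10 probe sets was 4105, 3605 and 3353 in null pools, against 2752, 3351 and 3080 in wild-type pools.

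Genes of the surrounding pathways were described by their brightest probe sets. None passed the test, with 0.0% of all probe sets called in either direction. Of 10 VEGF ligands and receptors 7 were higher in value and 3 lower, with a median log2 difference of 0.14, which was -0.10 without wild-type pool 1. Vegfd, a ligand, had the smallest unadjusted p, with 137, 49.2 and 71.3 in null pools, against 53.5, 22.5 and 34.2 in wild-type pools, and a log2 difference of 1.18 that was 0.78 without null pool 1. Plxnd1, a semaphorin receptor of vessels, read 97.2, 114 and 99.4 in null pools, against 42.9, 80.3 and 93.5 in wild-type pools, and its log2 difference of 0.59 was 0.25 without wild-type pool 1. Nrp2, a VEGF co-receptor, had a log2 difference of -0.47, or -0.31 without null pool 1.

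In the angiopoietin-Tie list 4 of 5 genes were higher in value, with a median of 1.17 that became 0.65 without null pool 1. Svep1, an extracellular protein, read 138, 175 and 131 in null pools, against 32.2, 87.1 and 99.3 in wild-type pools, without overlap (10.1% of genes did not overlap), and its log2 difference of 1.17 was 0.65 without wild-type pool 1. Angpt1, the ligand that activates Tek, had a log2 difference of 2.64 at dim signals of 39.7, 46.5 and 86.7 in null pools, against 5.57, 2.58 and 46.4 in wild-type pools. That difference was 0.69 on the log2(signal + 50) scale. Ptprb, the vascular phosphatase that acts on Tek, was lower in value in null pools, at -0.54.

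Of 18 transcription factors of endothelium and blood vessels, 14 were higher in value and 4 lower, with a median of 0.25. Without null pool 1, 12 were higher and 6 lower, with a median of 0.28. Fli1, an ETS factor, read 161, 156 and 220 in null pools, against 64.3, 81.9 and 158 in wild-type pools. Mef2c, a MADS-box factor of heart and vessel progenitors, had a log2 difference of 0.98 and Foxo1, a forkhead factor, one of 0.39. Tal1, the partner of Lmo2, read 188, 298 and 360 in null pools, against 173, 282 and 258 in wild-type pools, with a log2 difference of 0.23. Tal1 was named after its values were seen.

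The 22 endothelial surface, junction and signalling genes lost their common sign without null pool 1. With all pools 21 were higher in value and 1 lower, with a median log2 difference of 0.40. Null pool 1 was the highest pool for 19 of the 22, against 18.9% of all genes. Without it 10 were higher and 12 lower, with a median of -0.048. Leaving out any other pool gave medians from 0.26 to 0.67. Mcam, Acvrl1 and Stab1 had the smallest unadjusted p in this list, with log2 differences of 1.84, 0.63 and 0.73. Without null pool 1 they were 1.10 for Mcam, 0.94 for Acvrl1 and 0.047 for Stab1. Icam2 (208, 8.68 and 25.0 in null pools, against 37.2, 7.89 and 43.0 in wild-type pools) and Calcrl (443, 104 and 108 in null pools, against 64.0, 118 and 192 in wild-type pools) were further adhesion and receptor genes whose excess lay in null pool 1.

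Arterial and venous genes went both ways, 5 higher and 3 lower in value of 8, with a median of 0.28 that was -0.052 without wild-type pool 3. Nr2f2, a nuclear receptor of venous endothelium and of other mesoderm, read 155, 178 and 175 in null pools, against 71.2, 57.0 and 112 in wild-type pools, with a log2 difference of 1.14 (limma, unadjusted p = 0.0110, adjusted p = 0.797). Efnb2, an ephrin ligand of arteries and somites, read 1498, 1301 and 1637 in null pools, against 1194, 725 and 904 in wild-type pools, with a log2 difference of 0.68 (limma, adjusted p = 0.987). Notch1, a receptor with wide expression at this stage, was lower in value, at -0.43. For these 3 of the 8 genes the genotypes did not overlap, against 10.1% of all genes.

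**Figure D4:**
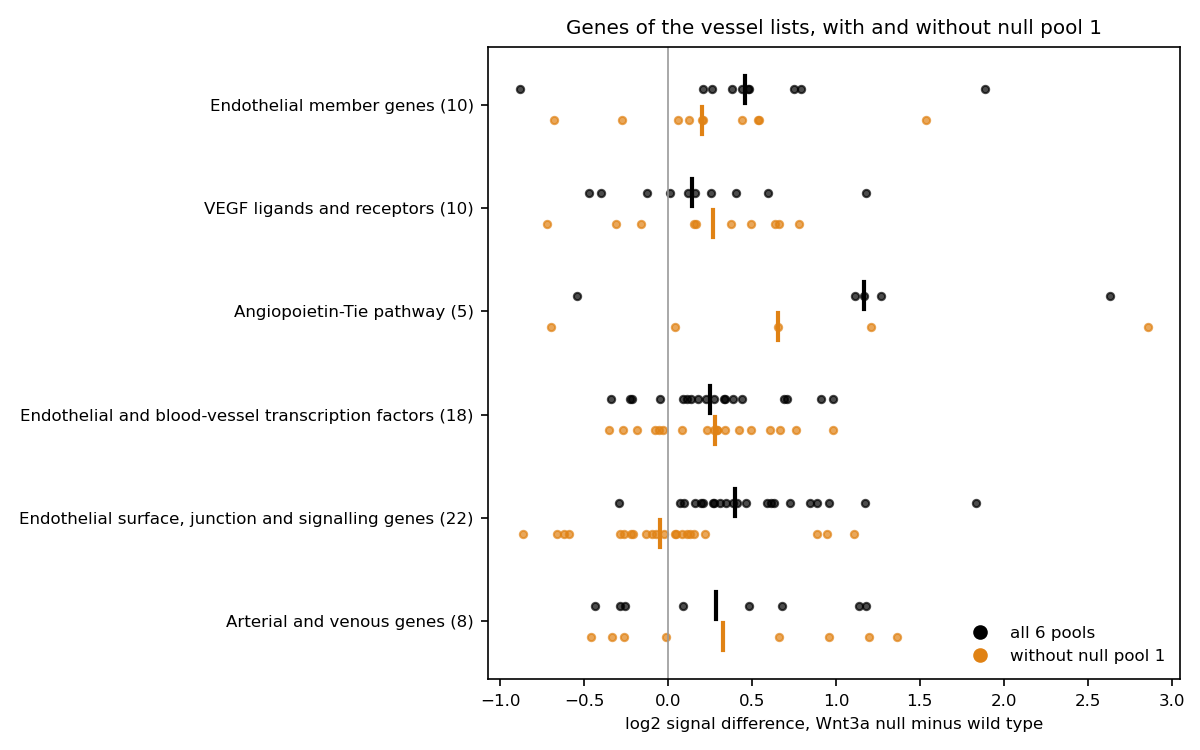
Points are single genes of the vessel lists (number of genes in brackets), with the log2 signal difference (Wnt3a null minus wild type) on the horizontal axis; black points use all 6 pools, orange points leave out null pool 1, and bars are medians. The surface and junction list goes to a median of -0.048 without null pool 1, against 0.40 with all pools. The transcription factors have a median of 0.28 against 0.25, with 12 of 18 higher in value against 14.

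Markers of neighbouring cell types gave the following values, again with none called. Primitive red blood cell genes were mostly dim, 8 of 10 below the median signal, with a summed signal of 470 to 829 in null pools and 366 to 580 in wild-type pools. Of the 10, 7 were higher in value and 3 lower (Hba-a1, Epor and Hemgn, at -0.46, -0.28 and -0.23). The embryonic globin Hba-x read 2.61, 8.48 and 55.6 in null pools, against 8.07, 3.28 and 4.25 in wild-type pools, and its log2 difference of 1.15 was -0.036 without null pool 3. Alas2 and Gata1 had log2 differences of 0.98 (0.61 without null pool 3) and 0.72. Blood progenitor markers summed to 931 to 1532 in null pools and 622 to 777 in wild-type pools. Of 7 measured, 5 were higher in value and 2 lower (Gfi1b at -0.66 and Runx1 at -0.030). Ptprc, Csf1r and Myb had the smallest unadjusted p, at log2 differences of 1.27, 0.89 and 0.98. Myb read 964 in null pool 1 and 136 to 342 in the other pools, and its difference was 0.37 without that pool. Csf1r was at 0.54 without wild-type pool 1 and Ptprc at 0.82 without wild-type pool 3.

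Heart progenitor markers summed to 4512 to 5196 in null pools and 2456 to 3296 in wild-type pools. Of 10 genes 7 were higher in value and 3 lower, with a median of 0.59, or 0.74 without null pool 1. The lower genes were Nkx2-5, Myl4 and Actc1, at log2 differences of -0.43, -0.41 and -0.13. Tbx20, Isl1 and Myl7 had the smallest unadjusted p, at log2 differences of 1.06, 0.74 and 1.31. In the fit with block, trend and robust variance options Tbx20 was called (limma, adjusted p = 0.0313), where 0.0178% of all probe sets were called higher. These genes mark mesoderm that lies beside the endothelial progenitors, and their part in the Kdr and Etv2 values was not tested.

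Allantois and extraembryonic mesoderm markers overlapped, at 2945 to 4592 in null pools and 2128 to 3287 in wild-type pools, with 4 of 7 higher in value. Foxf1, Hoxa13 and Ahnak had log2 differences of -0.39, -0.85 and 0.55, which without null pool 1 were -0.063, -0.46 and -0.16. These 3 do not stand for the list. Without null pool 1 it had 4 genes higher in value and 3 lower, with a median of 0.13, against 0.066 with all pools. Ahnak, a large scaffold protein, read 3515 in null pool 1 and 717 to 1005 elsewhere. Visceral and yolk sac endoderm markers summed to 41730 to 59631 in null pools and 35195 to 85648 in wild-type pools. Wild-type pool 2 was highest for all 9 of them. With all pools 2 were higher in value and 7 lower, with a median log2 difference of -0.040. Without wild-type pool 2 all 9 were higher, with a median of 0.35. Afp, Rbp4 and Hnf4a had log2 differences of 0.26, -0.15 and -0.16, which without wild-type pool 2 were 0.77, 0.22 and 0.30.

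The genes whose profile was closest to that of Kdr were found among 8009 genes with a mean log2 signal of at least 8. By Pearson's r over the 6 pools they were Tmem161b (0.993), the transcriptional repressor Prdm1 (0.991), Mrpl33 (0.988), Abtb2 (0.987) and Ythdc2 (0.979). Prdm1 read 312, 314 and 334 in null pools, against 187, 267 and 242 in wild-type pools. Among the other members r with Kdr ran from -0.68 (Lmo2) to 0.77 (Pecam1), with Etv2 at 0.69, Esam at 0.43 and Tek at 0.056. These values rest on 6 pools that share dissection and arrays, and the 5 genes are the closest of 8009.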

How the data were processed

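Amplified RNA of 6 pools (3 embryos each; 30 to 50 ng of total RNA per embryo, 600 ng in all pooled for the second amplification cycle, per the labels' protocols) was hybridised to mouse whole-genome arrays. The deposited table holds 1 linear intensity per probe set and array. The submitters' processing notes name RMA, yet every array has a mean of 500 once 2% of values are trimmed from each end, and no label or header records how the table was made. Intensities were turned to log2 with no floor. Of 45101 probe sets, 64 controls were left out; 34945 of the rest have 1 gene symbol, 932 several and 9160 are not listed. Gene names came from GEO's platform annotation, and 34741 probe sets matched RefSeq genes (GRCm38.p6) by ID.

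Null was compared with wild type with limma 3.58.1 in R 4.3.3 (lmFit, eBayes, two-sided, all probe sets). All 14 member probe sets were named, with the 3 smallest p of each further list (1 probe set a gene, the brightest) and 5 genes most like Kdr. Cldn5, Cd34, Angpt2, Tal1, Icam2, Calcrl and the decidua markers were named after their values were seen. Members, lists and tests were chosen with earlier results of these data known. Only the planned fit was tested, on 10 simulations of 45037 probe sets with 200 changed, drawn from those at or above the median signal. The simulated noise was independent between arrays, with nothing shared by arrays of the same replicate number. The fit with block, trend and robust options was not tested in this way.

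Deviations from the genotype means correlated at 0.422, 0.454 and 0.282 between arrays of replicate number 1, 2 and 3, over 18088 probe sets with a mean log2 above 7, so the numbers appear to pair the arrays (each above 0.1), while the reported fit has no block. Over all probe sets the correlations were 0.0537, 0.0524 and 0.0338. What arrays of 1 number have in common is not in the labels. Alternatives were the replicate block, trend and robust options, log2(signal + 50), a filter at the median signal, median centring, cyclic loess, quantile normalization, 1 probe set a gene, and leaving out each array. Added after seeing the data were the block with trend and robust options without each pair, over 1 probe set a gene and over log2(signal + 50), the list medians without each array, and the decidua list.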

Additional observations from a re-analysis of the deposited data

How the results depend on the processing

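No member probe set was called in the planned fit or with the replicate block (smallest adjusted p = 0.843, limma), and the count stayed at 0 without each array. The block changed no call of a member. Added after seeing the data, the block with trend and robust options called 1 member, Lmo2, without pair 2 (log2 difference -1.17), and 0 without pair 1 or pair 3. Over all probe sets the planned fit called 0 (2273 at an unadjusted p under 0.05), the replicate block 0 (2640), trend and robust options 1 and the block with both 22 (14 lower, 8 higher). The last fit called 21, 138 and 27 without pair 1, 2 and 3, 11 over 1 probe set a gene and 16 over log2(signal + 50). Among named list genes it moved Tbx20 past the threshold.

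The sign of 13 of 245 values of member probe sets turned, each time without an array or a pair, and 231 kept sign and call. Without pair 1 the brighter Cdh5 probe set was at -0.52, Egfl7 1451427_a_at at -0.24, Esam at -0.025 and Tek at -0.050, and without pair 2 Egfl7 1421335_a_at was at 0.19. Leaving out 1 array gave ranges of -0.43 to 0.13 and -0.18 to 0.53 for these Egfl7 probe sets, -0.16 to 0.48 for Sox18, -0.17 to 0.81 for Tek and -0.27 to 1.61 for Tie1. Of 441 values of named list genes 6 turned: leaving out 1 array gave -0.15 to 0.77 for Afp, -0.16 to 0.98 for Ahnak, -0.036 to 2.17 for Hba-x, -0.54 to 0.30 for Hnf4a and -0.37 to 0.22 for Rbp4. The cause was not tested. Signals near the floor (Tie1, Pecam1, the dimmer Cdh5 probe set) limit what can be seen.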
